A study of Mus musculus with 8 samples.

Results

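The interferon-inducible GTPases described here are 6 mouse genes, 2 of the guanylate-binding proteins (Gbp2 and Gbp3) and 4 of the immunity-related GTPases (Igtp, Irgm1, Irgm2 and Iigp1). They were taken by name, with earlier results of these data known. Every probe set annotated to them was used, which gave 8 probe sets among 45265 on the arrays and 6 genes among 18193. All 8 lie on array type A, with 2 each for Gbp2 and Iigp1 and 1 for each other gene, and none of the 8 is annotated to a further gene. The samples are total RNA of cultured murine myotubes, the fused cells of skeletal muscle. There are 4 RNAs, each read on 1 array of type A and 1 of type B. The truncated-Egr3 RNA and the wildtype RNA both carry the treatment type grow in their labels, and nothing more is said of the wildtype. How the Egr3 transcription factor was truncated, whether by an allele or an introduced construct, and how the cultures were made is not given in the sources used here. RNA275 carries only an acclimatization treatment in its label and RNA276 no treatment, so neither was placed in a group. Their values are given beside the labelled RNAs without a comparison between groups.

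Interferons are cytokines that bind receptors on the cell surface and act through JAK kinases and STAT factors. Complexes of STAT factors and IRF9 bind interferon-stimulated response elements (ISRE), and STAT dimers bind gamma-activated sites (GAS), in promoters of target genes. Guanylate-binding proteins and immunity-related GTPases are among the most strongly induced products of this pathway in mouse cells and are known for attacking vacuoles that hold intracellular parasites and bacteria. Gbp2 and Gbp3 are large GTPases related to dynamins. Iigp1 is an effector that coats parasite vacuoles, while Igtp, Irgm1 and Irgm2 are regulators that sit on the membranes of the cell itself and hold the effectors inactive there.

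Promoter stretches are printed for the 5 members with a RefSeq promoter entry, because the members moved together and these are the regions in which interferon-responsive factors are known to act. Each window ran from 250 bases before to 50 after the transcription start in build GRCm38.p6. It was searched on both strands for an ISRE core, spelled GAAANNGAAA or TTTCNNTTTC, and for a GAS core, spelled TTCNNNGAA, which reads the same on the other strand. The 120 bases around the ISRE match are given below from 5′ to 3′, with matching bases in capitals. The Gbp2 stretch is chr3:142620549-142620668 on the plus strand, and that of Gbp3 is chr3:142559947-142560066 on the plus strand. The stretches of Igtp and Irgm2 are chr11:58199467-58199586 and chr11:58214858-58214977, both on the plus strand, and that of Irgm1 is chr11:48871383-48871502 on the minus strand.
Gbp2: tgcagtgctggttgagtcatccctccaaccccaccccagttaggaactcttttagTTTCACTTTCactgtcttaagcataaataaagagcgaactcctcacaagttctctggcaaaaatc
Gbp3: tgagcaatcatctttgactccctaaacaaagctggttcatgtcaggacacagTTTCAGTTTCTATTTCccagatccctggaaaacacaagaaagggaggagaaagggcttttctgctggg
Igtp: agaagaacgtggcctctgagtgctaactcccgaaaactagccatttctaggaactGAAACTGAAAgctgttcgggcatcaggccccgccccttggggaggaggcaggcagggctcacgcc
Irgm2: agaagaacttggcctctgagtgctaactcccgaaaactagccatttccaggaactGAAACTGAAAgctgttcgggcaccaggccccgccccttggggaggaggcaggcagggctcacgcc
Irgm1: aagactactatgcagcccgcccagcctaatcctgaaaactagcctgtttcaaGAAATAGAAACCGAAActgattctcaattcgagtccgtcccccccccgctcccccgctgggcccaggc

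All 5 genes held the ISRE letters, in 5 of their 6 windows, against 3.44% of all 32851 promoter windows of this length. The window without them is the other of the 2 Gbp3 start sites. In Gbp3 and Irgm1 there were 2 matches that overlap, sharing a run of 4 bases. The first matching base lay 59 bases before the start in Gbp2, 45 in Gbp3, 34 in Igtp, 64 in Irgm2 and 30 in Irgm1. The GAS letters were found in Igtp and Irgm2, ahead of the ISRE letters and without overlap, and in 8.30% of all windows. Igtp and Irgm2 stand next to each other on chromosome 11, and their windows were identical at 247 of 264 aligned bases (93.6%). Their matches are therefore not independent of each other. A match gives the letters only and does not show that a factor binds there.

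**Figure D1:**
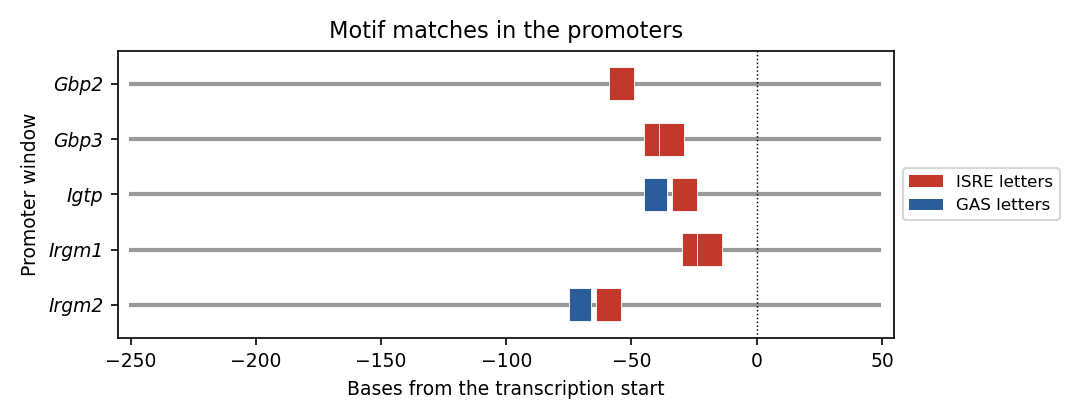
Positions of the ISRE letters (red) and GAS letters (blue) along the promoter windows of 5 members, in bases from the transcription start (dotted line at 0). The ISRE letters begin between 64 and 30 bases before the start in all 5 windows, and overlapping matches in Gbp3 and Irgm1 appear as adjoining boxes.

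Values are the intensities the authors deposited, on a linear scale. A signal floor of 67.6 was set on type A at the 50th percentile of the truncated-Egr3 and wildtype arrays pooled, and a fold against an array at the floor is a lower bound. With 1 RNA per label no test across replicates could be made, so a gene is counted as lower or higher where its floored signals were at least 2-fold apart, and each difference describes these RNAs. The technical SD of a single log2 difference between truncated Egr3 and wildtype was 0.179, from 100 probe sets present on both array types. Those probe sets gave a log2 difference of truncated Egr3 minus wildtype that averaged -0.14 on type A relative to type B. This SD holds no variation between cultures.

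All 6 GTPase genes were at least 2-fold lower in the truncated-Egr3 RNA than in the wildtype RNA, by all 8 probe sets. Because the genes were chosen with earlier results of these data known, this count describes the list and is not a test of it. Of the 10307 genes measured in these RNAs, 116 were at least 2-fold lower in truncated Egr3, which is 1.13%, and 55 at least 2-fold higher, which is 0.534%. With the arrays set to equal medians those counts were 93 lower and 87 higher, and the 6 members were still among the lower. The members' median log2 difference was -1.74, against 0.00 over all measured genes. For 3 of the 6 genes the truncated-Egr3 array was at the floor, so that median understates the difference, and without a floor it was -2.22. In whole-culture RNA, fewer cells that express a gene and less RNA per cell cannot be told apart.

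Among the guanylate-binding proteins, Gbp2 read 48.8 in the truncated-Egr3 RNA, 396 in the wildtype RNA, 356 in RNA275 and 2684 in RNA276. It was at least 5.87-fold lower in truncated Egr3 than in wildtype, and truncated Egr3 was the only RNA of the 4 below the floor. The dimmer Gbp2 probe set read 13.9 in truncated Egr3, 217 in wildtype, 252 in RNA275 and 1258 in RNA276. Its name marks it as open to cross-hybridisation with related sequences, and it gave a difference in the same direction of at least 3.20-fold. Gbp3, which lies close to Gbp2 on chromosome 3, read 35.1 in truncated Egr3, 209 in wildtype, 311 in RNA275 and 666 in RNA276. It was at least 3.09-fold lower in truncated Egr3. Guanylate-binding proteins are similar in sequence, so signal shared between family members cannot be told apart by these probe sets.

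Of the regulators, Igtp read 182 in truncated Egr3, 521 in wildtype, 434 in RNA275 and 2315 in RNA276, and Irgm1 read 184 in truncated Egr3, 460 in wildtype, 483 in RNA275 and 1179 in RNA276. Both were above the floor in all 4 RNAs, so their folds are measured on both sides: Igtp was 2.86-fold and Irgm1 2.51-fold lower in truncated Egr3 than in wildtype. The third regulator, Irgm2, read 53.8 in truncated Egr3, 245 in wildtype, 217 in RNA275 and 1084 in RNA276. It was below the floor in truncated Egr3 alone and was at least 3.63-fold lower there.

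The effector Iigp1 read 146 in truncated Egr3, 694 in wildtype, 579 in RNA275 and 1878 in RNA276 by its brighter probe set. That is 4.75-fold lower in truncated Egr3 than in wildtype, measured on both sides. Its dimmer probe set read 29.1 in truncated Egr3, 269 in wildtype, 254 in RNA275 and 641 in RNA276, at least 3.98-fold lower in truncated Egr3. Of the 9174 genes with both RNAs above the floor, 5 had a log2 difference as low as that of Iigp1 (-2.25), Iigp1 among them. For Igtp (-1.52) that number was 20, and for Irgm1 (-1.32) it was 30. The smallest member difference, that of Irgm1, was 7.41 times the technical SD.

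**Figure D2:**
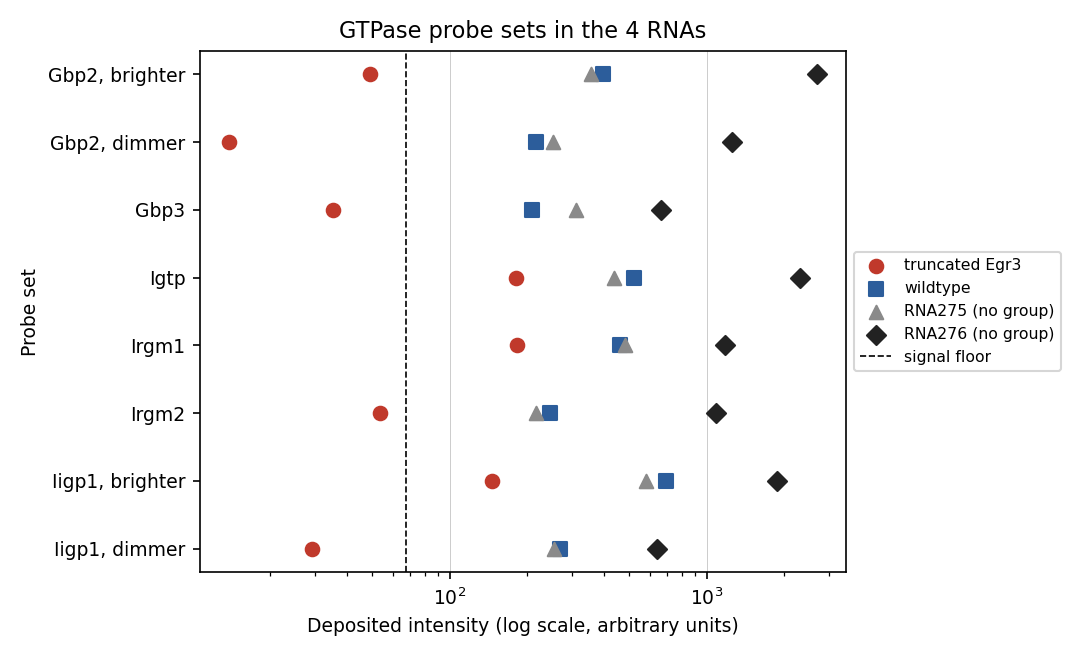
Deposited intensity (log axis) of each of the 8 GTPase probe sets in the truncated-Egr3, wildtype, RNA275 and RNA276 RNAs, 1 array per point, with the signal floor as a dashed line. In every row the truncated-Egr3 point is leftmost and the RNA276 point rightmost, with wildtype and RNA275 between them.

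**Figure D3:**
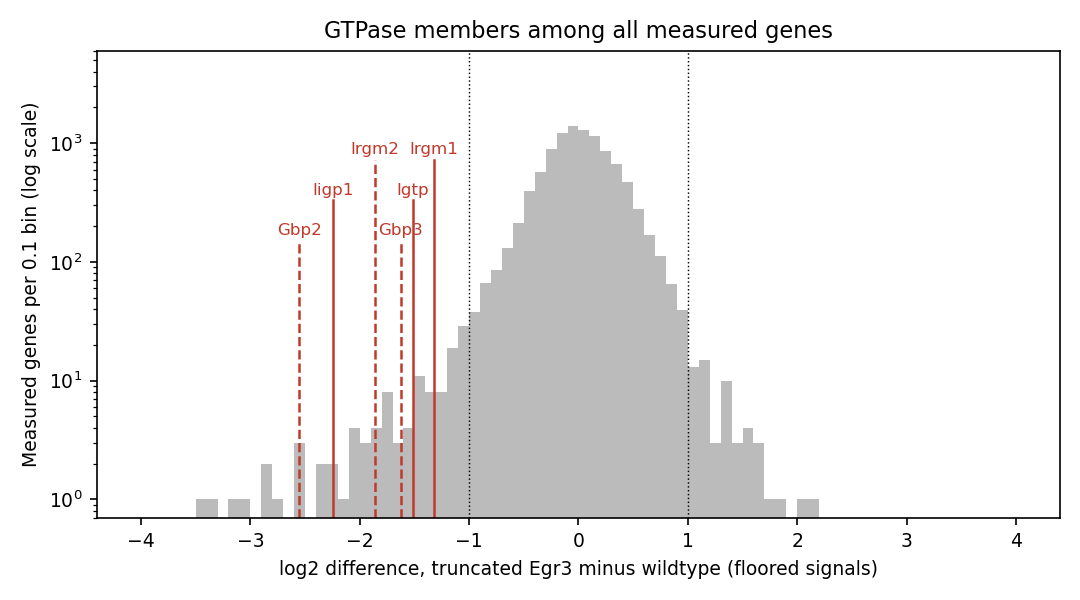
Distribution of the log2 difference, truncated Egr3 minus wildtype, over the 10307 measured genes (grey bars, log count axis), with the 6 members in red and 2-fold at the dotted lines. Solid red lines were measured on both sides and dashed ones are bounds; all 6 lie left of -1, between -2.55 (Gbp2) and -1.32 (Irgm1).

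Across the 4 RNAs all 8 probe sets were lowest in truncated Egr3 and highest in RNA276. By signal, 1453 of the 11154 genes above the floor in at least 1 RNA had that order, or 13.0%, so the order alone is shared by many genes. The distance between the lowest and highest RNA was smallest for Irgm1, at 2.68 in log2, and was at least 5.31 for Gbp2. With 4 RNAs, that order leaves wildtype and RNA275 as neighbours in all 8 probe sets, so this is no further result. Which of them was the higher varied. RNA275 was above wildtype for Gbp3, Irgm1 and the dimmer Gbp2 probe set, 3 of 8. In 4 of 8 probe sets the distance between these RNAs was within the technical SD of 0.181 for that pair. That SD leaves out a mean offset between the array types. For the 100 probe sets on both types, log2 wildtype minus RNA275 averaged 0.217 higher on type A than on type B. The largest was that of Gbp3, with a log2 value of RNA275 minus wildtype of 0.58; for Gbp2 the brighter probe set gave -0.15 and the dimmer 0.22. Thus the 2 Gbp2 probe sets differed on the order of these neighbours, the dimmer being the one open to cross-hybridisation. Both Iigp1 probe sets put wildtype higher, at -0.26 for the brighter and -0.08 for the dimmer.

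Profiles over the 4 RNAs were centred on each gene's own mean in log2 and compared with the mean profile of the 6 members, which was -1.86 in truncated Egr3, -0.01 in wildtype, -0.04 in RNA275 and 1.91 in RNA276. The members' own root mean square distances from it ran from 0.13 (Irgm2) to 0.55 (Gbp2), and the median over all 11154 genes was 1.34. The 8 nearest other genes were Lgals9, Ifi47, Parp12, Psmb8, Lgals3bp, Xaf1, Ifi35 and Parp9. Lgals9, a galectin, lay at 0.06, and Ifi47, itself an immunity-related GTPase, at 0.09. Parp12 and Parp9, members of the ADP-ribosyltransferase family, lay at 0.15 and 0.25. Psmb8, a catalytic subunit of the immunoproteasome, lay at 0.21. These genes were chosen for their likeness over only 4 RNAs, so their values are a description.

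**Figure D4:**
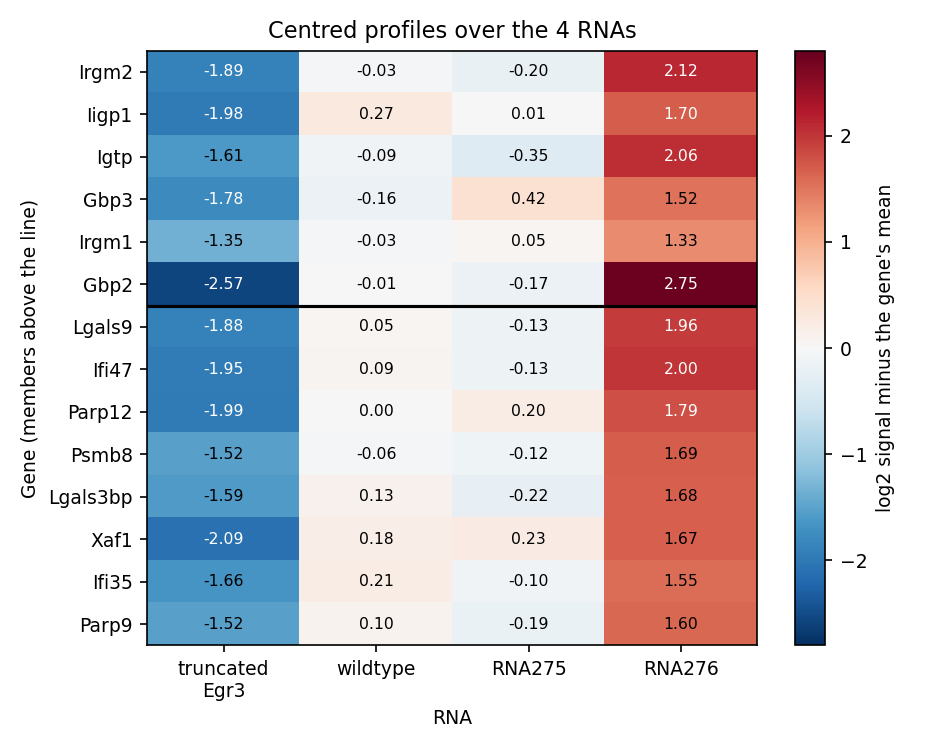
Log2 signal of each gene minus its mean over the 4 RNAs, for the 6 members (above the line) and the 8 other genes of most similar profile, with floored signals. Every gene shown is lowest in truncated Egr3 and highest in RNA276; the spread runs from -2.57 to 2.75 for Gbp2 and from -1.35 to 1.33 for Irgm1.

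The wider family was less completely read. Of 19 other interferon-inducible GTPases listed, 10 had a probe set of their own and 5 were measured in the labelled RNAs, of which 2 were at least 2-fold lower in truncated Egr3 and none higher. Outside these counts, a probe set shared by Tgtp1 and Tgtp2 read 78.2 in truncated Egr3, 683 in wildtype, 610 in RNA275 and 2807 in RNA276. Its log2 difference was -3.13. The probe sets shared by Gbp4 and Gbp8 and by Gm4070 and Gvin1 were below the floor in both labelled RNAs. Ifi47 read 115 in truncated Egr3, 473 in wildtype, 407 in RNA275 and 1787 in RNA276, which is 4.11-fold lower in truncated Egr3 than in wildtype. Gbp7, a guanylate-binding protein encoded beside Gbp3, was at least 2.55-fold lower (31.4 in truncated Egr3, 172 in wildtype). Gbp6 had a log2 difference of -0.08 by its type A probe set, which was near the floor in wildtype (26.9 in truncated Egr3, 71.4 in wildtype), and of -1.19 by its brighter type B probe set (96.7 in truncated Egr3, 256 in wildtype); both are bounds. Gm4951 had a difference of -0.89, also a bound. Irgq, a divergent relative of the immunity-related GTPases, had a difference of 0.38. The antiviral dynamin-like GTPases Mx1 and Mx2 were below the floor in both labelled RNAs and in RNA275, and read 460 and 165 in RNA276.

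Of 11 measured dynamin-like GTPases outside the interferon-inducible families, none was at least 2-fold lower and none at least 2-fold higher, and their median log2 difference was 0.04. Atl1, an atlastin of the endoplasmic reticulum, had the largest difference at 0.97, a bound, followed by Ehd2, a protein of membrane caveolae, at 0.53. Of the listed dynamin-like GTPases, measured or not, 13 had promoter windows and none of these held the ISRE letters. Of the other interferon-inducible GTPases listed, measured or not, 8 had windows and 6 of these held them. The GAS letters were in none of the 13 and in 5 of the 8. Of the 8 other genes with the profile most like the members', 7 had a promoter window and 1 of the 7 held the ISRE letters. Among the genes at least 2-fold lower in truncated Egr3 other than the members, 17 of 85 with a promoter window held them, against 290 of 8372 measured genes (3.46%), members included. Of 39 genes at least 2-fold higher with a window, 1 held the ISRE letters. The GAS letters were in 10 of the 85 lower genes, 5 of the 39 higher genes and 646 of the 8372 measured genes. Whether either set of letters bears on the differences was not tested.

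The genes beside the members on the chromosomes were read as well. Within 3 protein-coding genes on either side there were 20 genes outside the lists of interferon-inducible GTPases, 13 of them measured, and none was 2-fold apart. Their log2 differences ran from -0.23 (Rbm22, near Iigp1) to 0.43 (Zfp692, near Irgm2). In the cluster of guanylate-binding protein genes on chromosome 3, Gbp2b, which stands between Gbp3 and Gbp2, was below the floor in all 4 RNAs, at 13.9 in truncated Egr3, 25.2 in wildtype, 17.4 in RNA275 and 12.8 in RNA276.

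**Figure D5:**
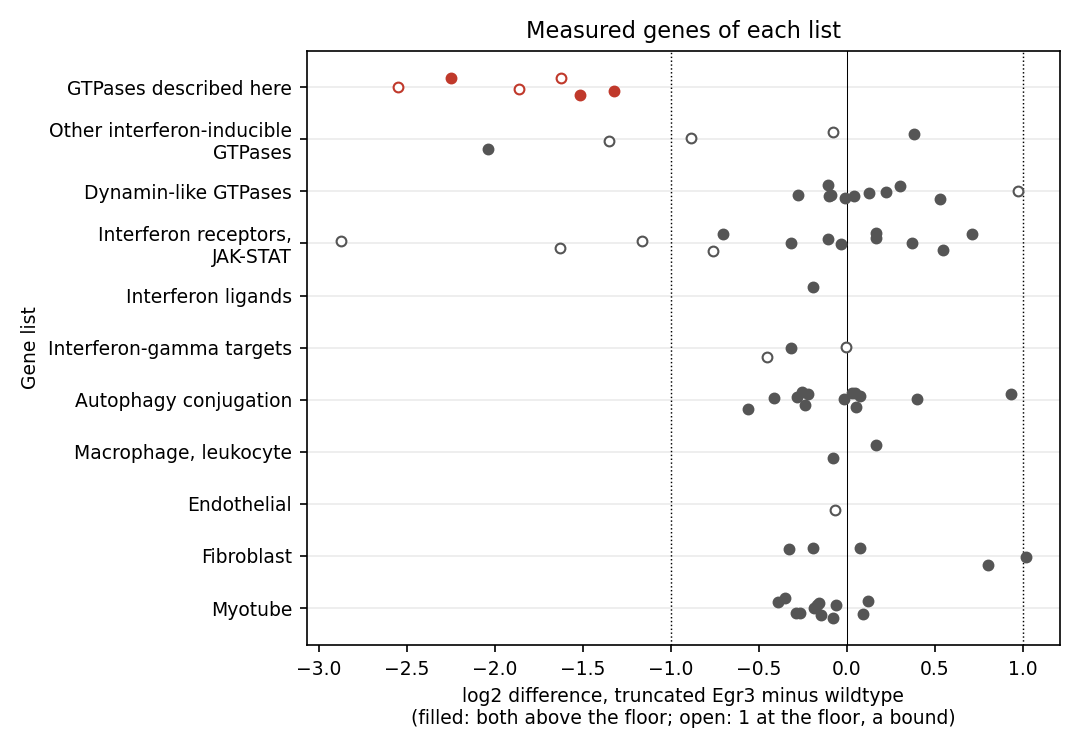
Log2 difference, truncated Egr3 minus wildtype, of every measured gene in each list, 1 point per gene, filled where both RNAs were above the floor and open where the difference is a bound; dotted lines mark 2-fold. The 6 GTPases described here all lie left of the 2-fold line, as do 2 other interferon-inducible GTPases and 3 signalling genes. The row labelled autophagy conjugation also holds Ulk1, Becn1 and Sqstm1, which are not conjugation genes.

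Of the interferon receptor and JAK-STAT genes, 13 of 16 were measured, 3 were at least 2-fold lower in truncated Egr3 and none higher, with a median log2 difference of -0.11. The 3 were Usp18, which restrains signalling from the type I interferon receptor (31.8 in truncated Egr3, 495 in wildtype, at least 7.33-fold lower), Irf9, the DNA-binding partner in the ISRE-binding complex (56.6 in truncated Egr3, 209 in wildtype, at least 3.09-fold lower), and Stat2 (51.0 in truncated Egr3, 151 in wildtype, at least 2.24-fold lower). The dimmer Stat2 probe set read 12.7 in truncated Egr3 and 82.5 in wildtype, at least 1.22-fold lower, which does not reach 2-fold. The receptor chains were under 2-fold, with Ifngr1 at a log2 difference of 0.71 and Ifngr2 at -0.11. Of the 22 genes for interferons and cytokines that induce them, 13 had a probe set and only Il18 was measured, at -0.19; Ifng read 12.5 in truncated Egr3 and 22.2 in wildtype, and Ifnb1 46.4 in truncated Egr3 and 44.4 in wildtype, all below the floor. The targets known chiefly from interferon-gamma had 3 measured of 14 and none 2-fold apart: Irf1 at -0.31, Cd74 at -0.45 and H2-Eb1 at -0.01. The values of Cd74 and H2-Eb1 are bounds, and that of H2-Eb1 is set by the floor (56.0 in truncated Egr3, 67.9 in wildtype). Cxcl9, a chemokine of that list, was below the floor in both labelled RNAs by its type A probe set (4.20 in truncated Egr3, 54.9 in wildtype) and read 87.0 in RNA275 and 318 in RNA276. Its type B probe set read 3.99 in truncated Egr3, 109.8 in wildtype, 146 in RNA275 and 454 in RNA276. The wildtype value lay just below the type B floor of 112.6, so Cxcl9 was not among the measured genes by either probe set. A list of autophagy genes held conjugation genes, known to help place immunity-related and guanylate-binding GTPases on vacuoles. It also held Ulk1, Becn1 and Sqstm1, which are not conjugation genes. Of the list, 13 of 14 were measured and none was 2-fold apart, with a median of -0.02. Ulk1 had the largest difference, at 0.93, and the conjugation gene Atg12 had one of -0.56.

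The labelled cell type was borne out by its markers, as 12 of 12 myotube genes were above the floor in all 4 RNAs. Their summed signals were 21045 in truncated Egr3, 23720 in wildtype, 19910 in RNA275 and 22334 in RNA276. Single markers differed more than the sums. Ttn read 1627 in truncated Egr3, 1850 in wildtype, 704 in RNA275 and 354 in RNA276. Des went the other way, at 1659 in truncated Egr3, 1523 in wildtype, 2020 in RNA275 and 2353 in RNA276. Of 15 macrophage and leukocyte markers, 2 (Csf1r and Laptm5) were above the floor in each RNA, with log2 differences of -0.08 and 0.16. The summed signals of that list were 496 in truncated Egr3, 520 in wildtype, 544 in RNA275 and 543 in RNA276, and Ptprc, the common leukocyte antigen, read between 8.64 and 11.6. Over the same RNAs the summed signals of the 6 GTPase genes were 649 in truncated Egr3, 2525 in wildtype, 2381 in RNA275 and 9804 in RNA276. Of 8 endothelial markers, 1 (Kdr) was above the floor, and in wildtype only (63.9 in truncated Egr3, 70.8 in wildtype). Of 9 fibroblast markers, 5 were above the floor in truncated Egr3 and 5 in wildtype, with summed signals of 7658 in truncated Egr3, 8161 in wildtype, 7073 in RNA275 and 8506 in RNA276, and Dcn, a matrix proteoglycan, was 2.02-fold higher in truncated Egr3. The part that fibroblast numbers play in the GTPase differences was not tested.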

How the data were processed

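The deposited intensity values, 1 per probe set and linear, had means of 150.0 on all 8 arrays after 2% of probe sets was trimmed from each end, so the authors' files were already on a shared scale, which was kept. Which software and settings made them is not given in the sources used here. Probe sets were named through the platform annotation and matched by gene number to RefSeq genes of GRCm38.p6; 34837 of 35041 with 1 symbol matched, among them all 6 members. The 936 probe sets with several symbols and the 9160 with none were not assigned to a gene. Each gene took its brightest probe set over the 4 RNAs, on type A where it had one there. Signals were floored at 67.6 on type A (50th percentile) and 112.6 on type B (60th percentile) and turned to log2; a gene was measured where at least 1 of the 2 labelled RNAs was above the floor. The number of arrays limits the precision.

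The genes named outside the 6 members are those at least 2-fold apart in each list, or the 2 of largest difference, and the 8 of nearest profile; Gbp6, Gm4951, Irgq, Mx1, Mx2, Gbp2b, Ifng, Ifnb1, Ifngr1, Ifngr2, H2-Eb1, Cxcl9 and Ptprc, and the neighbouring genes, were named after their values were seen. The family probe sets shared by several genes were also named after their values were seen. Members and lists were chosen with earlier results of these data known. The calling was tested on simulated data, with changes planted only in genes far above the floor in wildtype. Apart from Iigp1, the members were dimmer than those genes in wildtype. The simulation therefore does not cover calls at the signals of most members. The alternatives were 3 other scalings, 3 other floors, thresholds of 1.5-fold and 3-fold, the median over probe sets, and probe sets in place of genes; 2 more were chosen after seeing the data. Promoter windows are from RefSeq (GRCm38.p6), and windows were aligned globally with free end gaps. Python 3.11.15, numpy 2.4.6, pandas 2.3.3, statsmodels 0.14.6, Biopython 1.88 and matplotlib 3.10.9 were used.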

Additional observations from a re-analysis of the deposited data

Results flagged for a closer look

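RNA276, whose label gives no treatment, read more than 2-fold above both labelled RNAs for all 6 members. The share of all genes that did so in RNA276 was not counted. The number of members therefore has no background beside it and does not set them apart from other genes. Its signals were 2684 for Gbp2, 666 for Gbp3, 2315 for Igtp, 1179 for Irgm1, 1084 for Irgm2 and 1878 for Iigp1. None of the 6 genes read more than 2-fold above both labelled RNAs in RNA275. No explanation was tested.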

How the results depend on the processing

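The 6 members stayed at least 2-fold lower in truncated Egr3 in all 54 member values under the scalings, floors and probe set rules that gave one. Of the 54, 10 moved by more than the technical SD. Many others could not move. The 2 rules chosen after seeing the data picked the same member probe sets. The median could not change genes with 1 probe set, and Igtp, Irgm1 and Iigp1 were above every floor. The 54 are therefore not 54 separate checks. At the 3-fold threshold 4 of the 6 were counted, without Igtp and Irgm1. The member median was -2.22 with the lower floor, -1.42 with the higher floor and -2.22 without a floor. Gbp3 came nearest to 2-fold, at -1.04 with the higher floor. The count of all genes at least 2-fold lower, 116 as reported, was 185 with the lower floor, 76 with the higher floor, 1206 without a floor, 473 at 1.5-fold, 38 at 3-fold and 177 over probe sets. The count higher, 55 as reported, was 87 with equal medians, 84 with the lower floor, 603 without a floor, 484 at 1.5-fold, 8 at 3-fold and 141 over probe sets. The 2 other interferon-inducible GTPases at least 2-fold lower were 1 with the higher floor, 5 without a floor, 1 at 3-fold and 4 over probe sets. The 3 signalling genes were 5 at 1.5-fold, 4 with the lower floor and without a floor, and 2 with the higher floor, at 3-fold and with the median over probe sets. The interferon-gamma targets, 0 as reported, were 1 with the lower floor and 5 without a floor, and the leukocyte markers, 0 as reported, were 2 without a floor, where signals near background are compared. No paired analysis was possible because each label has 1 RNA, and leaving out a replicate was not possible for the same reason. Low signal limits Gbp2, Gbp3 and Irgm2 in truncated Egr3 to bounds.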
